A study of Homo sapiens with 3 samples.

Results

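The 8 genes described here encode proteins of the epithelial cell surface: the carcinoembryonic antigen family members CEACAM1, CEACAM5 and CEACAM6, the glycoproteins CD24 and CD44, the epithelial adhesion molecule EPCAM, prominin 1 (PROM1, also called CD133) and the activated leukocyte adhesion molecule ALCAM. They were chosen by name, as the rows with these symbols among 33538 features of 3 single-cell expression matrices, and all 8 were found in each matrix. The study co-cultured Caco-2 and HT29, established colon carcinoma lines that serve as stand-ins for absorptive and for secretory or undifferentiated gut epithelium, on porous Transwell supports. Caco-2 at passage 8 and HT29 at passage 13 were seeded together at 9 parts to 1, and trypsinized on day 23 for droplet 3′ RNA sequencing. The 2 control libraries came from untreated co-cultures. The single LPS library came from a co-culture given 1 ng/ml lipopolysaccharide of Escherichia coli O111:B4 in the apical chamber on day 22 for 24 h. No group carried an engineered allele, the lines are tumour cells with neither stroma, immune cells nor microbes around them, and any sample with low viability had first been depleted of dead cells with annexin beads, without a statement of which ones.

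Most of these proteins hold epithelial cells to one another, to matrix or to other cells. CEACAM1 is a transmembrane receptor that carries an inhibitory signalling motif, whereas CEACAM5 (the serum tumour marker CEA) and CEACAM6 are held by a lipid anchor, and in the colon the family lines the apical surface of mature cells and serves bacteria as a docking site. EPCAM binds its like on the neighbouring cell and stabilizes claudins, CD44 is the main receptor for the matrix polymer hyaluronan, CD24 is a small sialylated ligand, ALCAM binds itself and the lymphocyte receptor CD6, and PROM1 sits on membrane protrusions. CD44, CD24, PROM1 and ALCAM have all been used as surface markers of crypt base or tumour-initiating cells in colon.

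The matrices held 5811, 6495 and 6838 barcodes in control 1, control 2 and the LPS library, with 33893707, 27934953 and 24185467 unique molecular identifiers (UMIs, counts of captured transcripts). After removal of poor cells and likely doublets 4633, 4989 and 4850 cells were kept, and median UMIs per kept cell fell in the same order, from 5459 through 4103 to 3573.5. Libraries shared 9 to 11 barcodes, none with identical counts. Each cell was assigned to a line from gene lists that the study had derived from public bulk RNA-seq of the 2 lines, with the 8 genes taken out of the lists first. This gave 652, 985 and 862 HT29-line cells (14.1%, 19.7% and 17.8%) and 3950, 3933 and 3921 Caco-2-line cells, and 31 to 71 cells per library stayed unassigned. Of 7 markers of other cell types, PTPRC had 4 UMIs in all kept cells, COL3A1 11, VWF 31, PECAM1 134, CD3E 196, COL1A1 681 and LYZ, which secretory epithelium also makes, 17396. The 20 genes listed as HT29 markers were all higher in HT29-line cells. They were not held out of the assignment as the 8 genes were, so this is no independent check. Nothing states that the control libraries are separate cultures beyond separate Transwells, so the p-values measure the spread between these libraries.

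By the GENCODE annotation the members lie on 6 chromosomes of GRCh38, and the 3 CEACAM genes share chromosome 19: CEACAM5 (ENSG00000105388) at 41708585 to 41730433 and CEACAM6 (ENSG00000086548) at 41750977 to 41772211, both on the plus strand and 20543 bp apart, and CEACAM1 (ENSG00000079385) on the minus strand at 42507304 to 42561234, 735092 bp beyond CEACAM6. CD24 (ENSG00000272398) is on chromosome 6 at 106969831 to 106975627, CD44 (ENSG00000026508) on chromosome 11 at 35138882 to 35232402, EPCAM (ENSG00000119888) on chromosome 2 at 47345158 to 47387601, PROM1 (ENSG00000007062) on chromosome 4 at 15963076 to 16084378 and ALCAM (ENSG00000170017) on chromosome 3 at 105366909 to 105576900. The CEACAM genes are near-identical in stretches, and CD24 has processed copies elsewhere in the genome. Reads that match more than 1 gene are dropped by the counting program, so the levels of these 4 genes are uncertain to that extent.

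The start regions of the CEACAM trio are shown because CEACAM5 and CEACAM6 had the most similar pattern over clusters of all 28 pairs of members, with CEACAM1 less similar to either. Each is the RefSeq window (GRCh38.p14) from 250 bases before to 50 bases after the annotated start, 5′ to 3′ on the gene's strand, and capitals mark CACGTG, the palindromic E-box. CEACAM1 is chr19:42528432-42528731 on the minus strand, CEACAM5 is chr19:41708376-41708675 and CEACAM6 is chr19:41755280-41755579, both on the plus strand. The RefSeq starts of CEACAM1 and CEACAM6 are not the GENCODE gene starts, and their windows lie inside the GENCODE spans given above. The window of CEACAM5 spans its GENCODE start.
CEACAM1: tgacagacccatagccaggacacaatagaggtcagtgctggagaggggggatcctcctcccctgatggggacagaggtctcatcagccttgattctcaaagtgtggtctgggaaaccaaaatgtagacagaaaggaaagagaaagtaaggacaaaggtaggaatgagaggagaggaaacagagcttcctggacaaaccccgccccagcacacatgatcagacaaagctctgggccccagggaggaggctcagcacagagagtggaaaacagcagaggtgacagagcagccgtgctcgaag
CEACAM5: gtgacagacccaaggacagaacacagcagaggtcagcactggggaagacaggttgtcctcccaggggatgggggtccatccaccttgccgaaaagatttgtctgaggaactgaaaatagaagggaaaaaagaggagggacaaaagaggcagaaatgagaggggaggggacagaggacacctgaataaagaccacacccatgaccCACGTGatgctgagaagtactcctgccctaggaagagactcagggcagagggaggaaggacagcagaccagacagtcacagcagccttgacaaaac
CEACAM6: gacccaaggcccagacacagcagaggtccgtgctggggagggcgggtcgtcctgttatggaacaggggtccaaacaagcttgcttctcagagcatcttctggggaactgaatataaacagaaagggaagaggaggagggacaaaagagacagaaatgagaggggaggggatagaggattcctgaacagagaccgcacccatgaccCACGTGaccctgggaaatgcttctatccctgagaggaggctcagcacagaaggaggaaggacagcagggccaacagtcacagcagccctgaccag

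CACGTG stood at -46 to -41 in CEACAM5 and at -45 to -40 in CEACAM6, and was in 7.26% of all 35116 windows of this length in the RefSeq table. In the alignment CEACAM1 had CACATG in its place, with its first base at -41, and the window of the neighbouring relative CEACAM7 had CATGTG. No window of CD24, CD44, PROM1 or ALCAM held CACGTG on either strand, and no entry was matched for EPCAM. Over aligned columns CEACAM5 and CEACAM6 were 75.9% identical, CEACAM1 and CEACAM5 66.3%, and CEACAM1 and CEACAM6 69.0%, while CEACAM7 was 81.4% identical to CEACAM5 and 81.3% to CEACAM6. The 3 CEACAM windows held 3, 2 and 5 CpG dinucleotides against a median of 14 over all windows (33.7% of which hold 5 or fewer), 18 in CD44, 26 in ALCAM, 21 to 36 in the 3 windows of CD24 and 6 to 32 in the 4 of PROM1. The GC box GGGCGG, searched on both strands and present in 45.0% of all windows, was found in CEACAM1 and CEACAM6 and not in CEACAM5. It was also found in CD44, in ALCAM and in some windows of CD24 and PROM1. TATAAA, in 11.5% of all windows, was found among the members in CEACAM6 only, at -139 to -134, and CCAAT, in 34.6%, in 1 window each of CD24 and PROM1. These matches are descriptions of the letters and not of any protein bound there.

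Levels are given as CPM (the UMIs of a gene in proportion to all UMIs of the same cells), in the order control 1, control 2 and LPS library. Since 3′ counting gives about 1 UMI per captured transcript whatever its length, genes are set side by side without a length correction. Orders that involve the CEACAM genes or CD24 stay uncertain to the extent that their shared reads were dropped. EPCAM measured 609, 674 and 600 CPM in HT29-line cells and 627, 672 and 654 CPM in Caco-2-line cells. It was the most abundant member in each line and library except HT29-line cells of the LPS library, where CD24 was higher. A UMI of EPCAM was seen in 83.1 to 93.6% of HT29-line and 87.7 to 94.6% of Caco-2-line cells, as befits a defining marker of epithelium.

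Among the CEACAM genes CEACAM6 led in both lines. In HT29-line cells it reached 301, 296 and 364 CPM, against 24.2, 38.8 and 63.8 CPM in Caco-2-line cells. CEACAM5 measured 110, 111 and 151 CPM in HT29-line cells and 5.65, 6.03 and 12.1 CPM in Caco-2-line cells. For both genes every HT29-line value lay above every Caco-2-line value, and in both lines the LPS library was the highest of the 3. CEACAM1 was lower and more even, at 40.9, 40.1 and 48.8 CPM in HT29-line cells and 17.6, 21.7 and 28.6 CPM in Caco-2-line cells, again without overlap. The order CEACAM6, CEACAM5, CEACAM1 of HT29-line cells thus became CEACAM6, CEACAM1, CEACAM5 in Caco-2-line cells, without overlap in HT29-line cells and in the same order in each library, although the CEACAM6 and CEACAM1 ranges overlapped in Caco-2-line cells.

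CD24 was close to EPCAM in HT29-line cells, with 572, 579 and 620 CPM, and much lower in Caco-2-line cells, with 26.4, 37.5 and 32.8 CPM. CD44 measured 266, 213 and 237 CPM in HT29-line cells and 3.70, 6.28 and 4.65 CPM in Caco-2-line cells. The 2 genes therefore separated the lines without overlap, and neither had the LPS library beyond both controls in Caco-2-line cells. ALCAM was the rarest member, at 12.5, 13.5 and 13.1 CPM in HT29-line cells and 1.91, 3.82 and 1.45 CPM in Caco-2-line cells. PROM1 was low and alike in both, at 26.4, 16.6 and 21.8 CPM in HT29-line cells and 23.1, 23.8 and 28.6 CPM in Caco-2-line cells, and its ranges overlapped.

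**Figure D1:**
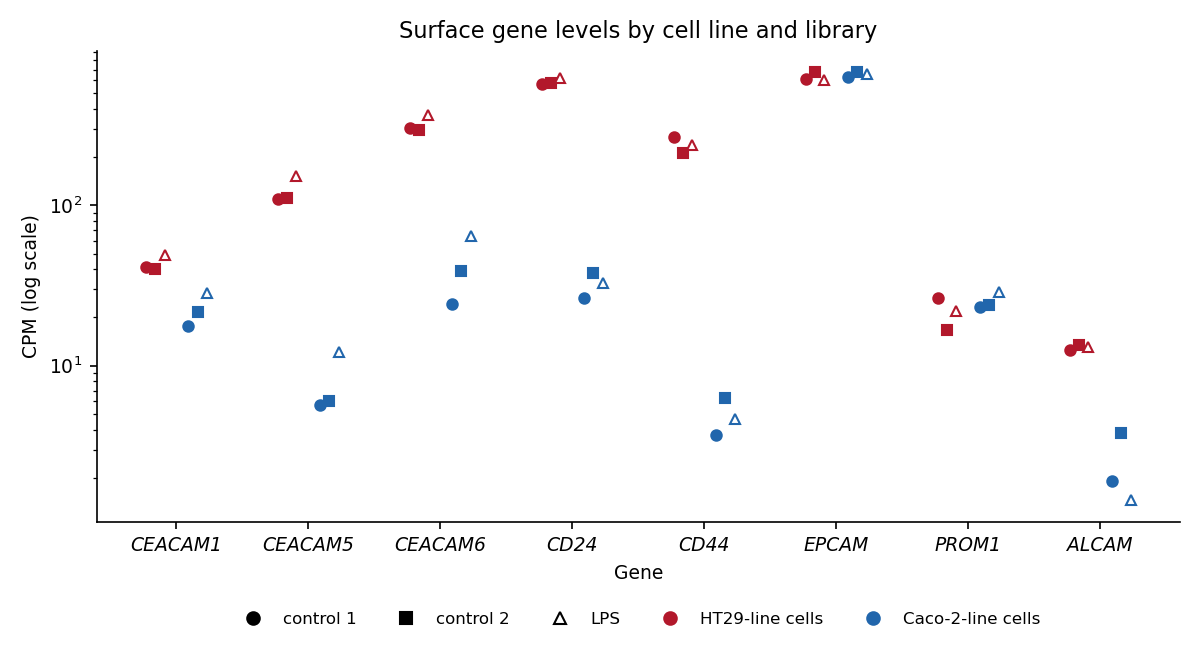
CPM on a log axis for each gene, by line (red, HT29-line cells; blue, Caco-2-line cells) and library (circles and squares, the 2 controls; open triangles, LPS). Each point is the summed count of 1 line in 1 library; EPCAM and PROM1 overlap between the lines, and the other 6 genes do not.

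The first comparison asked which of these genes mark the lines when both grow in 1 well. It was tested on UMIs summed per line and library, with edgeR's quasi-likelihood test over 15087 genes and Benjamini-Hochberg adjustment. In the controls 6 of the 8 members were higher in HT29-line cells and none was lower, while 60.5% of all genes tested passed in either direction, 28.5% higher and 31.9% lower. A call was therefore common in this contrast. The median log2 fold change of the members was 2.64, that of all genes tested -0.08. The members were chosen with earlier results of these data known, so setting them against all genes is a description only.

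CD44 had the largest difference, a log2 fold change of 5.51 (SE 0.23, adjusted p = 4.2e-11), which is 45.7-fold. CEACAM5 followed at 4.15 (SE 0.16, adjusted p = 2.6e-11), CD24 at 4.08 (SE 0.18, adjusted p = 6.9e-11) and CEACAM6 at 3.16 (SE 0.19, adjusted p = 2.0e-09). ALCAM differed by 2.11 (SE 0.30, adjusted p = 2.0e-05) and CEACAM1 by 0.96 (SE 0.16, adjusted p = 9.5e-05). EPCAM differed by -0.11, with a 95% interval from -0.39 to 0.18 (adjusted p = 0.494), and PROM1 by -0.22, from -0.64 to 0.20 (adjusted p = 0.349). Neither passed, although PROM1 passed without control 1, at -0.51, in a fit of control 2 and the LPS library together. The study's own bulk lists had held CD24 and CD44 on the HT29 side and EPCAM and PROM1 on the Caco-2 side. The LPS library alone, where 42.3% of genes passed, gave the same 6 calls, from 0.72 for CEACAM1 (adjusted p = 0.017) to 5.61 for CD44, of which DESeq2 kept 5, with the lone LPS library assumed to vary like the controls.

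Trace levels in Caco-2-line cells were set against those of HT29 marker genes, since free RNA in droplet data gives UMIs of HT29 genes to Caco-2-line cells. The marker levels do not measure free RNA alone, as they take in cluster 10 of the clustering below. There the 20 marker genes summed to 393, 466 and 469 CPM, against 15.1, 16.8 and 18.1 CPM in cluster 1. For the HT29 marker genes with at least 100 UMIs in HT29-line cells (15, 13 and 13 in the 3 libraries), the Caco-2-line level was a median of 1.12%, 1.68% and 1.17% of the HT29-line level, and at most 1.71%, 2.89% and 3.71%. CD44 stood at 1.39%, 2.95% and 1.96%, inside that range in control 1 and the LPS library and just above it in control 2, and the part of free RNA in it was not tested. CD24, at 4.62%, 6.49% and 5.29%, and CEACAM5, at 5.16%, 5.43% and 8.04%, lay above the highest of those genes in each library. CEACAM6 reached 8.06%, 13.1% and 17.5%, ALCAM 15.3%, 28.4% and 11.1%, and CEACAM1 43.1%, 54.1% and 58.5%. EPCAM stood between 99.6% and 109%, and PROM1 between 87.5% and 143%. Unlike the members, the HT29 marker genes were not held out of the lists that assigned the cells. The part of the assignment in their low Caco-2-line levels was not tested.

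**Figure D2:**
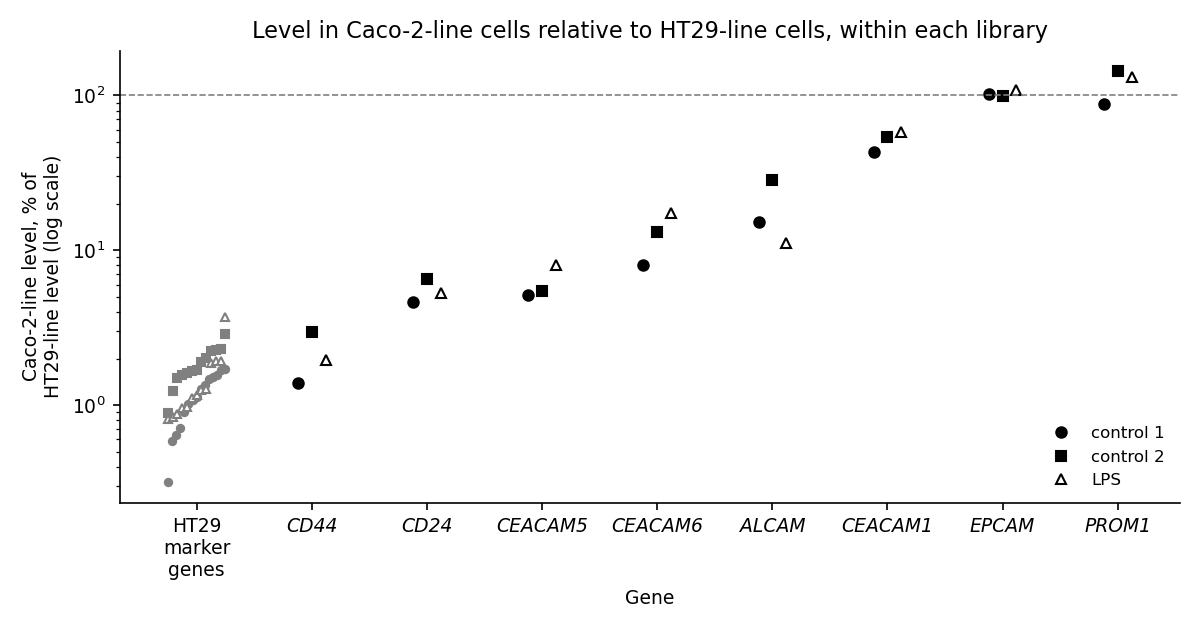
Level in Caco-2-line cells as a percentage of the level in HT29-line cells of the same library, on a log axis, for HT29 marker genes (grey) and the members (black); circles and squares are the controls, open triangles the LPS library, and the dashed line marks equal levels. Only marker genes with at least 100 UMIs in HT29-line cells of the library are shown. CD44 overlaps these marker genes, which reach 3.71%, and the other members lie above them.

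Genes of the same pathways were set against the 60.5% of all genes that passed between the lines, so calls among them were common too. Of 9 CEACAM relatives 3 were abundant enough to test. CEACAM7, a lipid-anchored relative of mature colonocytes, was higher in HT29-line cells (121 ± 22.8 against 2.92 ± 0.71 CPM, SD, n = 2; log2 fold change 5.30, edgeR adjusted p = 3.1e-11), and CEACAM20, a brush border receptor, lower (0.25 ± 0.35 against 2.79 ± 0.74 CPM). Of 11 EPCAM partners and relatives 7 were higher and 1 lower, with a median log2 fold change of 1.21. They include FHL2, which binds the cleaved intracellular part of EPCAM, at 2.22 (SE 0.15), and the protease inhibitors SPINT2 at 1.81 (SE 0.14) and SPINT1 at 1.62 (SE 0.14). EPCAM itself did not pass.

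Of 12 CD44 partners tested, 5 were higher and 6 lower, where 28.5% of all genes were higher and 31.9% lower. Moesin (MSN), which ties CD44 to the actin skeleton, was at 102 ± 12 CPM in HT29-line and 1.54 ± 0.24 CPM in Caco-2-line control cells, a log2 fold change of 5.97 (SE 0.20), and its relative radixin (RDX) was lower, at 57.8 ± 4.9 against 169 ± 16 CPM. The CD44-docked protease MMP7 differed by 5.82 (SE 0.27) and MMP14, which cleaves CD44, by -2.35 (SE 0.29). The hyaluronan synthases HAS2 and HAS3 were at 1.11 CPM or less in control cells of both lines. TIAM1 had no UMI in HT29-line control cells and 1.02 ± 0.16 CPM in Caco-2-line cells. Of 7 relatives and partners of CD24, PROM1 and ALCAM tested, 3 were higher and 3 lower: PROM2, the paralog of PROM1, differed by 4.76 (SE 0.24), and the neural adhesion molecules NRCAM by -3.90 (SE 0.37) and L1CAM by -3.39 (SE 0.57). The CD24 receptor gene SIGLEC10 was near 0 in both lines. Of 15 cadherins and other epithelial adhesion genes, 7 were higher and 4 lower, among them the surface signal CD47 at 4.69 (SE 0.18), CD58 at 3.25 (SE 0.16) and CADM1 at -4.48 (SE 0.39). Of 7 markers of leukocytes, endothelium and fibroblasts 4 could be tested, 1 (LYZ) was higher and 3 were lower, and all 10 proliferation genes were lower in HT29-line cells. The medians of the CD44 list and the last 2 adhesion lists, 0.09, 0.05 and 0.15, lay near the -0.08 of all genes tested.

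Within HT29-line cells the members differed in how many cells showed them. CD24 was detected in 81.1%, 77.2% and 76.7% of cells, CD44 in 69.8%, 50.4% and 53.9%, and CEACAM6 in 43.9%, 39.9% and 45.9%. CEACAM5 was seen in 21.3%, 22.2% and 25.2%, and the remaining CEACAM1, PROM1 and ALCAM in 18.4% or fewer. In control 1 the highest count in any HT29-line cell was 127 UMIs for CEACAM6 and 44 for CEACAM5, each gene taken separately. No HT29-line cell of any library held more than 31 UMIs of CD24 or 13 of CD44. With every cell thinned to the same depth, the mean number of members with a UMI was 1.88, 1.84 and 1.95 per HT29-line cell and 0.72, 0.81 and 0.82 per Caco-2-line cell.

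The CEACAM genes were found in the same cells more often than the product of their shares gives. In HT29-line cells the share with both CEACAM5 and CEACAM6 was 1.90, 1.75 and 1.56 times that product, the share with both CEACAM1 and CEACAM5 1.994, 1.499 and 1.622 times, and that with CEACAM1 and CEACAM6 1.46, 1.47 and 1.36 times. CD24 and CD44, the pair often sorted on in tumours, stood at 1.04, 1.03 and 1.09 times in HT29-line cells. The ratio cannot exceed the inverse of the larger share, so pairs and lines are not on a common scale. CD24 was seen in 76.7 to 81.1% of HT29-line cells and EPCAM in 87.7 to 94.6% of Caco-2-line cells. That alone keeps their ratios there low. At equal depth CEACAM5 and CEACAM6 were at 2.79, 2.18 and 1.90 times in HT29-line cells. In Caco-2-line cells the same pair reached 15.5, 10.1 and 6.69 times at equal depth, on 8, 12 and 21 cells that held both. Smaller shares in Caco-2-line cells put the limit higher for this pair. CD24 and ALCAM were together 7.49, 5.26 and 3.44 times the product in Caco-2-line cells before thinning, and 0.851, 0.764 and 1.051 times in HT29-line cells. As library means before thinning in Caco-2-line cells, CD24 and CD44 stood at 3.64 times, CEACAM1 and CEACAM6 at 2.75 and EPCAM and CD44 at 1.02. At equal depth CD24 and CD44 were there at 2.21 times, on 8 cells in all. An excess in Caco-2-line cells was thus not limited to pairs of CEACAM genes, and its source was not tested. Cells within a library are not replicates, and no test was made of these ratios.

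Clustering of all kept cells, without the members among its features, gave 14 clusters, of which 12 had at least 20 cells in every library. Values across clusters are given as mean ± SD of the 3 libraries and describe them without a test. Clusters 3 (HT29-like) and 11 (Goblet cell-like, with the mucin-associated FCGBP and MUC2 but also the hormone genes SST and GCG among its leading genes) were of the HT29 line and the others mostly of the Caco-2 line.

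CEACAM1 was spread over clusters of both lines. It was highest in cluster 9 (unnamed, led by ITGA5), at 50.2 ± 5.9 CPM, then in cluster 3 at 45.5 ± 4.7, in the Enterocyte-like cluster 4 at 40.2 ± 11.3 and in cluster 2 (unnamed, led by S100A9) at 37.6 ± 16.2 CPM, and these neighbours overlapped. It was lowest in the Intestinal stem cell-like cluster 6, at 4.11 ± 3.26 CPM, and in the larger Transit amplifying-like cluster 1, at 5.56 ± 0.53 CPM. With log normalization and no integration the highest cluster was one of the HT29 line, at 44.3 CPM.

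CEACAM5 and CEACAM6 were highest in the HT29-like cluster 3, at 125 ± 24 and 328 ± 37 CPM, apart from the next cluster in each case. The Goblet cell-like cluster, of the same line, held 42.2 ± 11.4 and 101 ± 29 CPM. On the Caco-2 side cluster 10 (unnamed, led by SLURP1, PSORS1C2 and CALML5) had 42.5 ± 29.4 CPM of CEACAM5 and 134 ± 48 of CEACAM6. Transit amplifying-like cluster 5 (led by ANKRD62, SPC25 and RRM2) had 4.70, 13.8 and 26.0 CPM of CEACAM5 and 30.8, 76.3 and 139 CPM of CEACAM6 in control 1, control 2 and the LPS library, so that its libraries differed more than most clusters did. The Intestinal stem cell-like cluster was lowest of the 12, at 1.46 ± 1.27 and 9.38 ± 4.38 CPM.

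CD24 was high in 4 small or HT29-side clusters and low elsewhere. It measured 575 ± 31 CPM in cluster 3 and 524 ± 250 in the Enteroendocrine cell-like cluster 12. The Fetal gene expressing-like cluster 14 had 478 ± 43 CPM, with only 18 UMIs from 8 cells in the LPS library. The Goblet cell-like cluster 11 had 464 ± 15 CPM. Neighbours in this order overlapped, and cluster 10 came next, apart from all of them, at 112 ± 16 CPM. In cluster 12 the 3 libraries gave 698, 637 and 238 CPM. The Intestinal stem cell-like cluster followed at 74.6 ± 33.6 CPM, and the Enterocyte-like cluster was lowest at 5.73 ± 3.21 CPM. The range of CD24 in cluster 12 overlapped that of HT29-line cells. Cluster 14, at 521, 434 and 478 CPM, lay below the 572, 579 and 620 CPM of HT29-line cells.

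ALCAM was found in fewer places still. The Enteroendocrine cell-like cluster gave 138, 207 and 14.01 CPM, from 31, 55 and 2 UMIs, and the Goblet cell-like cluster 48.6, 72.6 and 68.8 CPM, while HT29-like cluster 3 had 8.23 ± 0.45 CPM and every other cluster 4.05 CPM or less on average. The low value in cluster 12 of the LPS library rests on 37 cells there, against 63 and 87 in the controls. Enteroendocrine markers of that cluster were low in the same library: INSM1 gave 507, 419 and 182 CPM, CPE 480, 441 and 63.0 CPM, and the granin CHGA 93.3, 151 and 0 CPM, on 21, 40 and 0 UMIs. How far the makeup of that cluster accounts for the ALCAM value was not tested.

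CD44 was the member most nearly restricted to the HT29 line, with 241 ± 24 CPM in cluster 3 and 71.5 ± 9.3 in the Goblet cell-like cluster. Cluster 10 had 59.8 ± 19.2 CPM, apart from the next cluster, and the Intestinal stem cell-like cluster 3.41 ± 1.04 CPM. In cluster 10, 88.7% of cells were assigned to Caco-2, but the 20 HT29 marker genes summed to 393, 466 and 469 CPM, against 2274, 1905 and 1736 CPM in cluster 3 and 15.1, 16.8 and 18.1 CPM in cluster 1. Its median of 6955 UMIs per cell was the highest of all clusters. Whether its CD44 and CEACAM UMIs come from droplets with cells or RNA of both lines was not tested.

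EPCAM varied least, by 0.57 on the log2(CPM + 1) scale between its highest and lowest cluster of the 12, from 842 ± 27 CPM in cluster 9 to 568 ± 42 in cluster 10, and only cluster 9 stood apart from the next below it among these 12. The small Fetal gene expressing-like cluster 14 was lower, at 333 ± 65 CPM, on 64, 76 and 15 UMIs. PROM1 was highest in the small cluster 13, at 47.4 ± 26.8 CPM on 1, 8 and 13 UMIs, and its range overlapped that of the next cluster. Among the 12 larger clusters it varied by 1.44, from 36.3 ± 5.2 CPM in cluster 9, 35.8 ± 3.8 in the Goblet cell-like cluster and 34.3 ± 6.9 in Transit amplifying-like cluster 1 to 12.7 ± 1.6 in cluster 2, and was at 22.5 ± 5.9 CPM in the Intestinal stem cell-like cluster. The same range was 6.42 for CD24 and 4.98 for CEACAM6. For CEACAM1 it was 3.33, with an SD of 1.24 over libraries. That value is imprecise, since its lowest cluster held 7, 1 and 7 UMIs in control 1, control 2 and the LPS library. No range is given for CD44, CEACAM5 and ALCAM, whose lowest clusters held from 0 to 4 UMIs in a library.

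**Figure D3:**
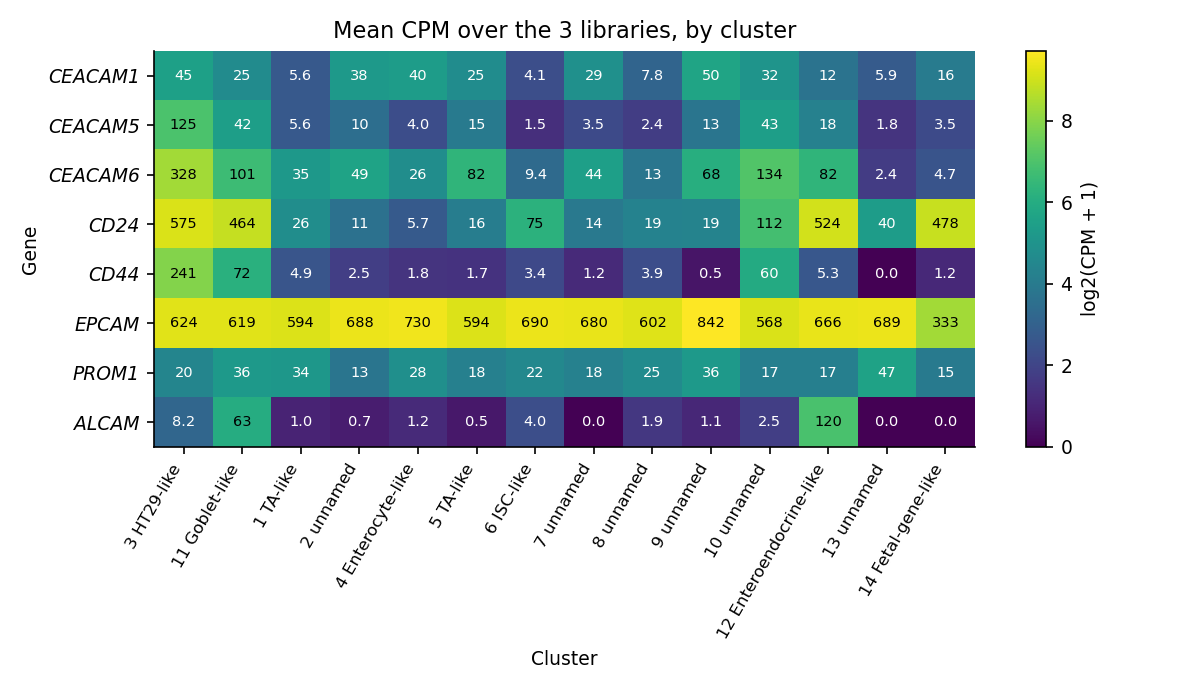
Mean CPM over the 3 libraries for each gene (rows) and cluster (columns), printed in each cell and coloured on the scale log2(CPM + 1); the 2 clusters on the left are of the HT29 line, and the others are ordered by number (TA, transit amplifying; ISC, intestinal stem cell). CD24 is high in clusters 3, 11, 12 and 14, ALCAM in 11 and 12, and EPCAM in all 14.

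In the controls a few cells held much of the UMIs of some members in Caco-2-line cells. There cluster 12 had 1.75% of Caco-2-line cells and 0.996% of their UMIs, but 60.8% of their ALCAM UMIs (76 of 125) and 21.0% of their CD24 UMIs. Cluster 14, with 0.812% of cells, held 15.4% of CD24 UMIs. Cluster 10, with 2.94% of cells and 4.14% of UMIs, held 42.3% of CD44 UMIs, 17.7% of CEACAM5, 13.7% of CEACAM6 and 12.9% of CD24 UMIs. In the LPS library the shares were smaller. There cluster 12, with 0.842% of cells, held 4.17% of ALCAM UMIs (1 of 24) and 6.08% of CD24 UMIs. Cluster 14 held 3.31% of CD24 UMIs and cluster 10 24.7% of CD44 UMIs. These clusters also had fewer cells there. Of all kept cells, cluster 10 made up 1.64%, 3.71% and 0.804% in control 1, control 2 and the LPS library. For cluster 14 it was 0.453%, 0.882% and 0.165%. A smaller share of UMIs need not mean a lower level: CD44 in cluster 10 was at 37.7, 69.1 and 72.6 CPM. For EPCAM in the controls clusters 12, 14 and 10 held 1.11%, 0.475% and 3.68%. On the HT29 side the Goblet cell-like cluster, with 8.61% of control cells, held 37.7% of ALCAM UMIs and 12.6% of PROM1 UMIs, but 2.25% of CD44 and 2.01% of CEACAM6 UMIs. Without cluster 12 the difference of ALCAM between the lines grew to 3.43, and without cluster 10 that of CD44 to 6.26 on the log2 scale.

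**Figure D4:**
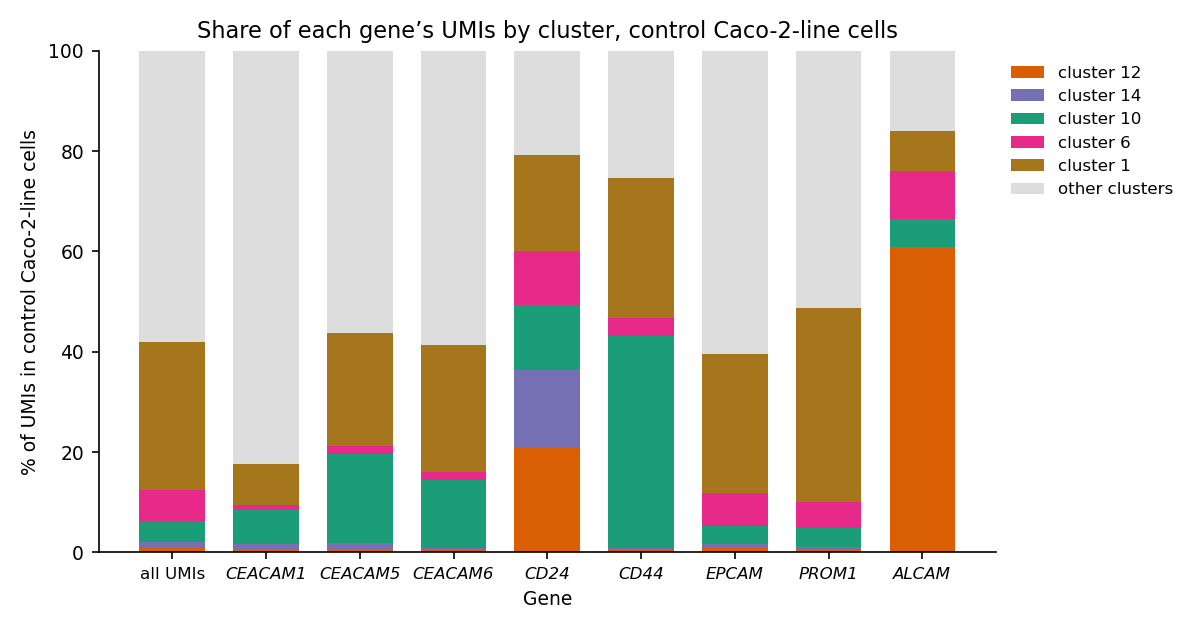
Stacked bars of the percentage of UMIs in control Caco-2-line cells that came from clusters 12, 14, 10, 6, 1 and all others, for all UMIs together and for each gene. Cluster 12 holds 60.8% of ALCAM and 21.0% of CD24 UMIs but 0.996% of all UMIs.

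Likeness of pattern was measured as Pearson's r of log2(CPM + 1) over 36 points, 12 clusters in 3 libraries, against 5719 genes with a mean of at least 20 CPM. The points share libraries and lines, so r is a description only. Among members the highest values were 0.90 for CEACAM5 and CEACAM6, 0.82 for CD24 and ALCAM, and 0.74 for CEACAM5 and CD44, while CEACAM1 reached 0.57 with CEACAM5 and 0.58 with CEACAM6. Closest to CEACAM1 were the creatine transporter SLC6A8 (0.88), CDCP1 (0.85) and PFKP (0.85). CEACAM6 was closest to the glucose transporter SLC2A1 (0.86), EMP3 (0.85) and AC103702.2 (0.82), and CEACAM5 to TMSB4X, AC103702.2 and CYP3A5 (0.84 each). For CD44 they were CRABP2, PHLDA2 and FAM3D (0.93 each), for CD24 HSPB1 (0.93), HOTAIRM1 (0.92) and TNKS1BP1 (0.92), and for ALCAM the tubulin gene TUBA1A (0.91), KLK12 (0.90) and TDG (0.90). EPCAM was closest to LGR4 (0.83), NORAD (0.78) and KMT5B (0.78), and PROM1, with the lowest values, to MYO9A (0.70), RAB21 (0.69) and IBTK (0.68).

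The next comparison asked how the members follow enterocyte differentiation within the Caco-2 line. Caco-2-line cells of each library were ranked by a score of 12 enterocyte genes and cut into 3 equal ranges (terciles), which are not cell types. CEACAM1 rose with the score, from 12.3, 14.7 and 17.6 CPM in the lowest tercile to 24.4, 33.7 and 39.2 CPM in the highest, in every library. CD24 fell from 54.0, 68.4 and 53.4 to 12.2, 19.5 and 13.5 CPM, and the lowest and highest terciles did not overlap. ALCAM was at 4.003, 7.737 and 2.122 CPM in the lowest tercile and 1.16, 0.92 and 1.42 CPM in the highest.

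In the test over 14021 genes, 4 of the 8 members passed in the controls, CEACAM1 and EPCAM as higher and CD24 and ALCAM as lower in the highest tercile. The background was 35.8% of genes in either direction, 18.9% higher and 16.9% lower. CEACAM1 rose by a log2 fold change of 1.38 (SE 0.17, edgeR adjusted p = 2.2e-04) and CD24 changed by -1.69 (SE 0.25, adjusted p = 6.9e-04), and both passed under each alternative run. CD24 ranged there from -1.18 without the cells of cluster 12 to -2.53 without those of cluster 10. EPCAM passed at 0.39 (SE 0.095, adjusted p = 0.0098), with 618, 643 and 613 CPM in the lowest and 657, 711 and 701 in the highest tercile. That call depends on scaling. Without a scaling factor, on total UMIs, EPCAM changed by 0.12 (edgeR adjusted p = 0.342), and the median of all genes moved from -0.03 to -0.30. Then 1579 genes were higher and 4548 lower in place of 2651 and 2367. The scaling shifts all members in the same direction, and the CPM are given without it. Changes read from the CPM are therefore lower than the log2 fold changes of this comparison. ALCAM changed by -2.15 (SE 0.59, adjusted p = 0.016), but without the cells of cluster 12 by 0.54 (adjusted p = 0.627), and in the controls 52 and 66 of those cells were in the lowest tercile and 1 and 3 in the highest.

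**Figure D5:**
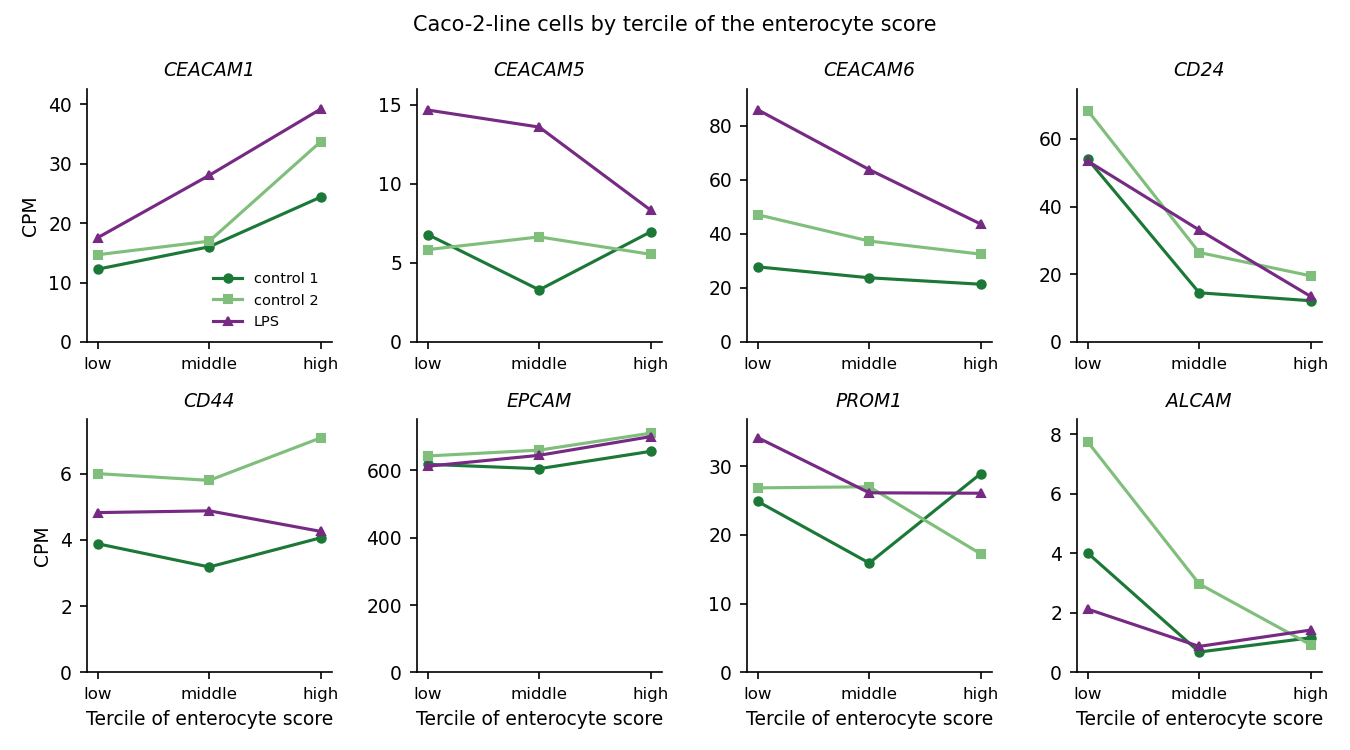
CPM of each gene in Caco-2-line cells by tercile of the enterocyte score (low, middle, high), with a line for each library; each axis starts at 0. CEACAM1 rises and CD24 falls in all 3 libraries, and the LPS library is the highest of the 3 for CEACAM5 and CEACAM6 in every tercile.

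CEACAM5, CEACAM6, CD44 and PROM1 did not pass. CEACAM6 was at 27.8, 47.1 and 85.9 CPM in the lowest and 21.4, 32.5 and 43.6 CPM in the highest tercile, lower in each library, with a log2 fold change of -0.20 (95% interval -0.80 to 0.39, adjusted p = 0.5801). A fit with the library as a block pairs terciles of the same library and also takes in the LPS library. There CEACAM6 passed as lower, at -0.41 (edgeR adjusted p = 3.9e-04), and 7746 of all genes passed in place of 5018. CEACAM6 also passed at -0.56 without control 1 and at -0.47 without control 2, fits that again take in the LPS library. The LPS library had the largest fall of CEACAM6, and its part in these calls was not tested. CEACAM5 differed by 0.27 (-0.39 to 0.92) and PROM1 by 0.14 (-0.45 to 0.73). CD44 differed by 0.44 (-0.35 to 1.23, adjusted p = 0.365), and by -1.18 without cluster 10 (adjusted p = 0.039). HT29 marker genes in these Caco-2-line cells also rose over the terciles, their sum in the controls going from 23.5 and 22.9 to 41.0 and 56.6 CPM, with 5 of the 10 tested called higher, and 47 and 106 cluster 10 cells were in the highest tercile against 2 and 13 in the lowest. Their part in the CD44 and CEACAM values was not tested.

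Related genes were set along the score as well, where 18.9% of all genes were higher and 16.9% lower in the highest tercile. CEACAM20, the brush border relative of CEACAM1, was higher in the highest tercile by 3.54 (SE 0.54, adjusted p = 7.5e-04), the only one of 3 tested CEACAM relatives to pass. Of 11 EPCAM partners 6 were higher and 1 lower, with TSPAN8 at 1.07 (SE 0.35) and SPINT1 at 0.76 (SE 0.09). Of 11 CD44 partners MSN was higher (1.91, SE 0.52), from a Caco-2-line level of 1.54 CPM against 102 CPM in HT29-line cells and beside the rise of the HT29 marker genes, whose part in it was not tested, and the mitotic hyaluronan receptor gene HMMR lower (-1.02, SE 0.14). Of 7 relatives and partners of CD24, PROM1 and ALCAM none was higher and 3 were lower, MCAM by -2.91 (SE 0.56), NRCAM by -2.32 (SE 0.39) and L1CAM by -1.90 (SE 0.31). Of 14 cadherins and other adhesion genes 5 were higher and 3 lower, with the intestinal cadherin CDH17 at 1.14 (SE 0.10), CD58 at 1.28 (SE 0.17), CADM1 at -2.57 (SE 0.37) and CDH3 at -1.28 (SE 0.22). Of 10 proliferation genes 8 were lower in the highest tercile.

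The last comparison set the LPS library against the controls within each line. Since there was 1 LPS library, its spread was taken from the others, and the result compares libraries as much as treatments. In Caco-2-line cells no member passed edgeR's test, where 0.0133% of genes did. The largest member differences were CEACAM5 at a log2 fold change of 0.97 (SE 0.19, adjusted p = 0.281) and CEACAM6 at 0.94 (SE 0.21, adjusted p = 0.426), and CEACAM1 stood at 0.46 (SE 0.18, adjusted p = 0.992). At an unadjusted p under 0.05, 4 members passed by edgeR (these 3 and ALCAM) and 2 by DESeq2 (CEACAM5 and CEACAM6), neither of which held after adjustment by DESeq2. Of all 15087 genes 526 passed that unadjusted limit by edgeR and 108 by DESeq2. With no filter on low counts edgeR did call CEACAM5 (0.97, adjusted p = 0.0078) and CEACAM6 (0.93, adjusted p = 3.9e-04), so the call turns on the filter, while over all other alternatives with a test the adjusted p of both stayed above 0.05. ALCAM differed by -1.03 (SE 0.42), but by 0.26 without cluster 12 and by -0.25 against control 1 alone, and CD24, CD44, EPCAM and PROM1 by -0.16 to 0.20.

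In HT29-line cells, where 0.0729% of genes passed, no member did. CEACAM5 was at 0.40 (SE 0.17), CEACAM6 at 0.24 (SE 0.21) and CEACAM1 at 0.22 (SE 0.20), and only CEACAM5 had an unadjusted p under 0.05 by edgeR, none by DESeq2. Of all 15087 genes 595 had one by edgeR and 219 by DESeq2. The test of the difference between the lines called 0.0133% of genes and no member, with CEACAM5 at -0.57 (SE 0.26) and CEACAM6 at -0.70 (SE 0.31), both under an unadjusted p of 0.05 by edgeR and neither by DESeq2. Of all genes 380 were under it by edgeR and 107 by DESeq2. All 3 CEACAM genes were above both controls in the LPS library in both lines, as were CD24 in HT29-line and PROM1 in Caco-2-line cells. How many of all genes lay above both controls was not counted, so this only describes the values. The LPS library also had the lowest median UMIs per cell, and with all cells thinned to the same depth the Caco-2-line differences were 0.98 for CEACAM5, 0.94 for CEACAM6 and 0.62 for CEACAM1. Random thinning keeps the expected share of each gene in a cell, so these values are no test of an effect of depth.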

How the data were processed

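The authors deposited, for each of 3 libraries, a filtered matrix of UMI counts per gene and cell, made with Cell Ranger (3.1.0 in the matrix headers) against GRCh38; reads matching more than 1 gene are not counted. The counts were used as deposited. Cells were kept by the study's minimums of UMIs and genes, those of control 2 being used for the LPS library, with at most 20% mitochondrial UMIs, and the 6% with the highest Scrublet scores in each library were removed. The 8 members and the gene lists were chosen with earlier results of these data known. Cells were assigned to a line by a 2-component mixture of a score at a posterior over 0.9. UMIs were summed per line (or per tercile of the enterocyte score) and library and tested with edgeR 4.0.16 (TMM, filterByExpr, quasi-likelihood, adjusted p under 0.05), and with DESeq2 1.42.0 as an alternative; 95% intervals come from the same fit. Clusters follow the study's steps (Seurat 5.3.0, sctransform 0.4.2, 50 components, 15 neighbours, Leiden at 0.5, scanpy 1.11.5); a rule that a named cluster needs a marker among its 10 leading genes was added after the clusters were seen. Named were all members, up to 4 called genes of each list with the largest change (others named were chosen after their values were seen) and the 3 genes most like each member. Lines and terciles of a library come from the same well, so a block for library was an alternative. Between the lines and along the score, that block and the fits without 1 control also took in the LPS library. Sequences are from RefSeq (GRCh38.p14); 7 of 8 members matched. The values of 2 listed genes are not reported here. Scripts were tested on simulated data.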

Additional observations from a re-analysis of the deposited data

How the results depend on the processing

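Between the lines 119 of 120 member values kept their direction and their side of the threshold, PROM1 without control 1 being the exception. Over the enterocyte score 100 of 120 did, and for LPS 82 of 96 in Caco-2-line cells, 80 of 96 in HT29-line cells and 76 of 80 for the difference between lines. Among these LPS values, those without 1 control have no test and are counted where they moved by less than 1 SD of the controls, even with a change of sign. The cause was not tested except where cells were left out. The settings without cluster 10 or 12 and with total UMIs were chosen after seeing the data.

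Along the score CEACAM5, 0.27 in the report, changed sign with thinning (-0.059), with every barcode kept (-0.021), with the library as a block (-0.058), without cluster 10 (-0.19), with total UMIs (-0.010), and in the range from -0.30 to -0.13 without 1 control. CD44 turned to -0.16 with every barcode kept, -0.16 with no doublets removed and -1.18 without cluster 10. PROM1 turned to -0.14 with total UMIs and -0.28 without control 1 (0.22 without control 2), and ALCAM to 0.54 without cluster 12. ALCAM also lost its call with DESeq2 (adjusted p = 0.057), with the minimums of control 1 (0.073) and with a score without apolipoprotein genes (0.157). Genes called, 5018 in all, were 2437 with DESeq2, 2906 with thinning and 7746 with the library block. The block changed no other member call than that of CEACAM6, and gave 10561 genes called between the lines.

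For LPS in Caco-2-line cells CD24 turned to 0.028 without cluster 10, 0.20 without cluster 12 and 0.039 with total UMIs, CD44 to 0.20 without cluster 10, ALCAM to 0.26 without cluster 12 and EPCAM to 0.011 with total UMIs. In HT29-line cells PROM1 turned to 0.28 with thinning, 0.0077 with no doublets removed and 0.025 with total UMIs, and ALCAM to 0.14 with thinning, 0.094 with every barcode kept and 0.0090 with total UMIs. The difference between the lines turned to -0.14 for CD24 and -0.28 for ALCAM without cluster 12, and for CD44 to -0.0023 with thinning and -0.27 without cluster 10. With no filter on low counts 2 members and 37 genes were called in Caco-2-line cells, 49 genes in HT29-line cells and 12 for the difference. In the same order the counts, 2, 11 and 2 in the report, were 4, 4 and 1 with thinning, 0, 1 and 0 with every barcode kept and 0, 1 and 0 with no doublets removed. They were also 7 in HT29-line cells with the minimums of control 1, 1 in Caco-2-line cells without cluster 10 and 0 for the difference with total UMIs. With the line taken from each cluster they were 0, 7 and 0, with 472, 557 and 327 genes at an unadjusted p under 0.05. Without 1 control the LPS differences are ratios of CPM with no test. Against control 1 alone CD24 was then at 0.30, CD44 at 0.26, EPCAM at 0.06 and ALCAM at -0.25 in Caco-2-line cells and ALCAM at 0.06 in HT29-line cells, and against control 2 alone CD44 was at 0.15 and PROM1 at 0.38 in HT29-line cells, all but the -0.25 with the opposite sign to the report. For these contrasts no count could be given without 1 control or without the LPS library.

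With thinning the mean ratio of cells with both genes to the product of shares went in HT29-line cells from 1.43 to 1.59 for CEACAM1 and CEACAM6 and from 1.74 to 2.29 for CEACAM5 and CEACAM6. In Caco-2-line cells it went from 3.57 to 3.21 for CEACAM1 and CEACAM5, from 2.75 to 4.41 for CEACAM1 and CEACAM6 and from 5.82 to 10.8 for CEACAM5 and CEACAM6. Thinning also lowers the shares, which raises the limit of that ratio. In control Caco-2-line cells ALCAM had 125, CD44 220 and CEACAM5 265 UMIs, which limits their precision.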
